A study of Mus musculus with 4 samples.

Results

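A set of 7 genes of neural intermediate filaments, listed by name, was followed in RNA from mouse cells sorted as otic: the neurofilament subunits Nefl, Nefm and Nefh, the related neuronal filament genes Ina and Prph, and the progenitor filament genes Nes and Vim. All 7 symbols were found among the 52636 genes of the deposited count tables. The list was drawn up with results of the comparison below already known: its members were chosen by name with their levels in the 2 groups in view, so that comparison is given here as a description and tests nothing about these genes. The samples were 4 libraries of otic ectoderm, 2 with the genotype label Control (Control_OV_1 and Control_OV_2) and 2 with the label Brg1cKO, for a conditional knockout of the chromatin remodeler Brg1. Each was made from 3000 cells purified by flow sorting from otocysts, the epithelial vesicles that become the inner ear. The Cre driver, the alleles, the stage, the sorting marker and any pooling of embryos are not named by the labels, which do not say either whether replicates were separate litters or sorts, so the spread between replicates may be technical.

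Intermediate filaments are rope-like polymers of coiled-coil proteins that give cells mechanical strength. Neurons build theirs from the light, medium and heavy neurofilament subunits (Nefl, Nefm and Nefh) together with alpha-internexin (Ina) or peripherin (Prph), and neurofilaments set the calibre of axons. Dividing neural progenitors instead carry nestin (Nes) and vimentin (Vim), and cells switch from the second set to the first as they leave the cycle and grow axons. In the inner ear the neurons of the cochlear and vestibular ganglion leave the otic epithelium as neuroblasts, and peripherin later marks a subset of them. Vimentin is also a main filament of mesenchyme, endothelium and macrophages, and nestin is also found in endothelium and muscle precursors.

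The libraries held 15357265 to 29361382 reads in genes, the controls fewer than the others. Of all records, 48.2% and 49.3% fell in genes in the Control libraries and 64.0% and 63.7% in the Brg1cKO libraries. This difference goes with the group and cannot be told apart from it. Genes with at least 1 read, a count that rises with depth, numbered 17086 and 17266 in the Control libraries and 20859 and 20902 in the Brg1cKO libraries, and replicates of the Control group lay farther apart (SD of their log2 ratio over tested genes 1.65, against 0.90). Smarca4, which encodes Brg1, stood at 816 and 815 CPM (reads relative to the library total, scaled by TMM) in the Control libraries, against 891 and 848 CPM in the Brg1cKO libraries. Smarca4 was thus not lower in the Brg1cKO libraries, and why was not tested. The count covers the whole gene, so exons outside any deletion would count too, and the alleles are not named. This is therefore a weak check of the labels. Both groups held transcripts of other cells: the 12 endothelial markers summed to 3003 to 3048 CPM in the controls, and the 12 otic epithelium markers to 1784 to 2020 CPM. In the Brg1cKO libraries these sums were 3335 to 3381 and 393 to 438 CPM.

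Transcripts of the 5 neuronal filament genes were lower in both Brg1cKO libraries than in both controls, while those of the progenitor genes Nes and Vim were not. Summed over Nefl, Nefm, Nefh, Ina and Prph, the level was 769 and 885 CPM in the Control libraries and 238 and 243 CPM in the Brg1cKO libraries. The fitted log2 fold change (Brg1cKO over Control) was below -1 for these 5 genes and between 0 and 1 for Nes and Vim. Of all 16557 genes tested, 14.6% lay below -1. In the same libraries the otic epithelium markers were low and the macrophage markers high (summed levels above and below), and the part of this in the filament levels was not tested. In bulk RNA, fewer neurons and less filament RNA per neuron cannot be told apart.

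**Figure D1:**
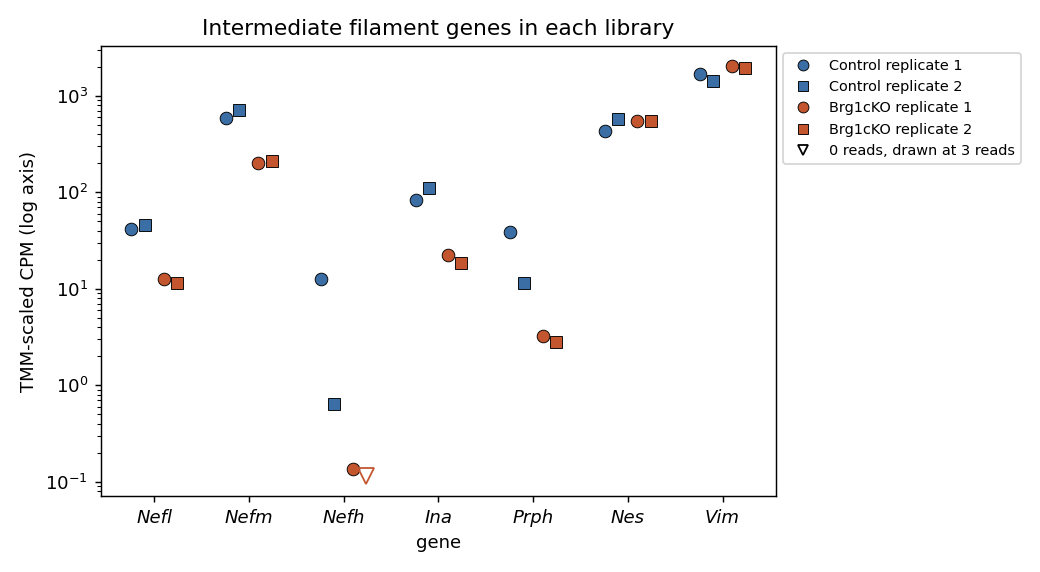
Level of each filament gene in each library, in TMM-scaled CPM on a log axis. Circles and squares are replicates 1 and 2, and the open triangle is a library with 0 reads, drawn at the level of 3 reads. The 5 neuronal genes are lower in both Brg1cKO libraries than in both controls, Nes overlaps, and the controls of Nefh and Prph lie far apart.

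Nefm (ENSMUSG00000022054), the medium neurofilament subunit, was the most abundant of the neuronal genes. It stood at 592 and 717 CPM in Control replicates 1 and 2 (9112 and 13507 reads), against 199 and 211 CPM in the Brg1cKO libraries (5837 and 5460 reads). The groups did not overlap, and the lower control was 2.81 times the higher Brg1cKO library. The means were 654 ± 88.2 and 205 ± 7.94 CPM (SD, n = 2 each), with a log2 fold change of -1.67 ± 0.15 (SE) and a 95% interval from -2.03 to -1.32. Nefm was the 1 member of 7 that passed an adjusted p under 0.05 over all genes tested (edgeR, Benjamini-Hochberg), where 0.0302% of all genes passed. Since the list was chosen with that call known, nothing is read from its count.

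Nefl (ENSMUSG00000022055), the light subunit on which the other neurofilament proteins assemble, was far less abundant than Nefm, per length of exon as well. It stood at 41.6 and 45.8 CPM in the Control libraries, against 12.7 and 11.4 CPM in the Brg1cKO libraries. The controls lay close together and well above the others, with 43.7 ± 2.97 against 12.0 ± 0.939 CPM (SD, n = 2 each). The log2 fold change was -1.86 ± 0.51 (SE), and its 95% interval ran from -3.07 to -0.65 (adjusted p = 0.329, edgeR). Nefm had 14.2 and 15.6 reads per read of Nefl in the Control libraries and 15.7 and 18.5 in the Brg1cKO libraries.

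The ratio was higher in both Brg1cKO libraries, though 1 of them was next to a control. It has to be read with the layout of the locus, since the 2 genes are neighbours on chromosome 14 of mm10, Nefl from 68083863 to 68089095 on the plus strand and Nefm from 68082590 to 68124846 on the minus strand. The annotation gives Nefm a short transcript that ends 35.4 kb from the start of Nefl, and a long one whose last exon runs across the first exon of Nefl. The shared stretch has 1108 bases, 32.8% of the exonic bases of Nefl and 19.2% of those of Nefm. The libraries were strand-specific per the labels' protocols, but how the counting treated strand is not given in the sources used here. Across the annotation, 470 genes lie wholly within opposite-strand exons of another gene, and 1.06% of them had at least 10 reads over the 4 libraries, against 20.2% of other genes of the same annotated types. Counting without strand would leave such genes empty, and reads from the shared 1108 bases would then have entered neither Nefl nor Nefm. With the reads of both summed as 1 feature the log2 fold change was -1.69. Most of those reads are of Nefm, so this value had to lie near that of Nefm. Summing also cannot bring back reads that entered neither gene, so it does not show what the overlap did to Nefl. Ina likewise shares 456 bases (14.1% of its exons) with Nt5c2 on the other strand. Nefh, Prph, Nes and Vim share none with another gene.

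**Figure D2:**
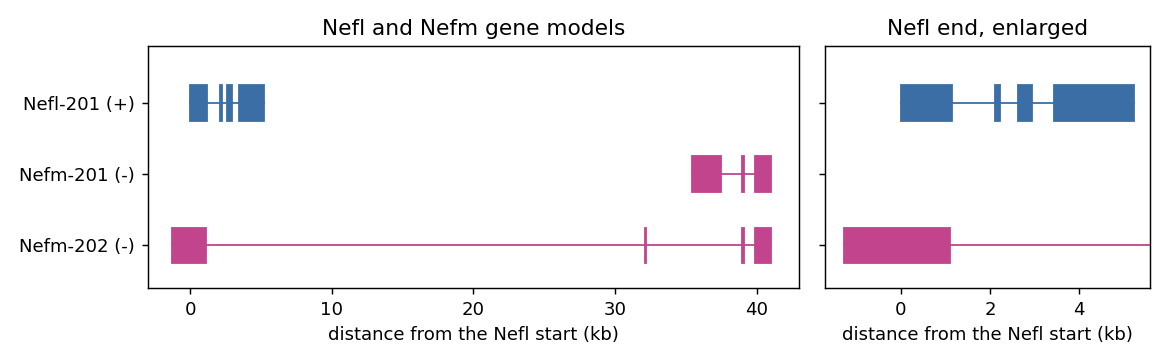
Annotated transcripts of Nefl (plus strand) and Nefm (minus strand), with exons as blocks, by distance from the Nefl start in kb. The right panel enlarges the Nefl end, where the last exon of the long Nefm transcript covers nearly all of the first Nefl exon.

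Nefh (ENSMUSG00000020396, chromosome 11, 4938754 to 4948064), the heavy subunit, which is the last of the neurofilament proteins to appear as axons mature, had few reads outside a single library. It had 195 and 12 reads in the Control libraries and 4 and 0 in the Brg1cKO libraries. In CPM these were 12.7 and 0.637 against 0.137 and 0, and the count of 0 allows up to 0.116 CPM. Control replicate 1 stood far above the other 3 libraries, and the 2 controls differed from each other by 4.31 on the log2 scale. The mean was 6.65 ± 8.51 CPM (SD, n = 2) in the controls, so the SD exceeded the mean. Nefh passed the filter on low counts through the controls alone. Its fitted log2 fold change, -6.47 ± 2.77 (SE), had a 95% interval from -13.00 to 0.05, and without Control replicate 1 the value was -3.11.

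Ina encodes alpha-internexin, an early filament protein of young neurons (ENSMUSG00000034336, chromosome 19, 47014698 to 47025327). It stood at 83.5 and 110 CPM in the Control libraries, against 22.6 and 18.6 CPM in the Brg1cKO libraries. Both controls were above both Brg1cKO libraries, the lower control by 3.70 times over the higher of them. The log2 fold change was -2.24 ± 0.37 (SE), and its 95% interval ran from -3.11 to -1.36 (adjusted p = 0.121, edgeR). Nefm had 7.09 and 6.50 reads per read of Ina in the Control libraries and 8.83 and 11.4 in the Brg1cKO libraries, so this ratio too was higher in both Brg1cKO libraries, and the difference between the genes was not tested.

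Prph encodes peripherin, a filament protein of peripheral neurons (ENSMUSG00000023484, chromosome 15, 99055174 to 99058978). It stood at 39.0 and 11.6 CPM in the Control libraries, against 3.28 and 2.82 CPM in the Brg1cKO libraries. The groups did not overlap, but the controls differed by 1.75 on the log2 scale and the Brg1cKO libraries by 0.22. The log2 fold change was -3.05 ± 0.95 (SE), and its 95% interval ran from -5.28 to -0.82 (adjusted p = 0.368, edgeR). Without Control replicate 1, the library that also had most of the Nefh reads, it was -1.92.

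Promoter windows from RefSeq (GRCm38.p6, the assembly of mm10) were found for 4 of the 7 genes, of which that of Vim lies inside the annotated gene and is not shown. For Ina and Prph, which were low in both Brg1cKO libraries, and for Nes, which was not, the bases before the annotated gene are shown 5′ to 3′ on the strand of the gene. They lie at chr19:47014431-47014680, chr15:99054924-99055173 and chr3:87970843-87971077, each on the plus strand. Capitals mark a match to one of 5 motifs searched on both strands, which do not overlap here: TATAAA (the TATA box), CCAAT (the CCAAT box), GGGCGG (the GC box), CAGATG (an E-box of neural bHLH factors) and ACAAAG (a SOX motif). The GC box reads CCGCCC on the other strand.
Ina: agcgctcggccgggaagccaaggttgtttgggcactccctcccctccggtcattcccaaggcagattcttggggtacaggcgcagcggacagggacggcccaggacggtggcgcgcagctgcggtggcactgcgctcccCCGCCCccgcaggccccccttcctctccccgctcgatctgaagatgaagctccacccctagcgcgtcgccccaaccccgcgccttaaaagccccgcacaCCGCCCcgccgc
Prph: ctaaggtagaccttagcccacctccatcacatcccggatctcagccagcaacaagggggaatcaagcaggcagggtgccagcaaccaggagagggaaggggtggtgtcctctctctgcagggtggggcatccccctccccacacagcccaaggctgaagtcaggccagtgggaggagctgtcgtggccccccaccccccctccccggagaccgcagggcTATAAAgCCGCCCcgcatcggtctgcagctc
Nes: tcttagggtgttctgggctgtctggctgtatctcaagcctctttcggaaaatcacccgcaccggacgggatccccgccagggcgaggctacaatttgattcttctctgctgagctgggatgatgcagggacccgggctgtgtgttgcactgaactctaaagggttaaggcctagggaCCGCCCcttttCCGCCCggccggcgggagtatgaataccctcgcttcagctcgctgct
Ina and Nes each had 2 GC boxes, and Prph had 1 together with a TATA box just before it. In 250-base windows of all 32817 promoters (the Nes stretch has 235 bases), 32.7% held the GC box and 12.4% the TATA box. None of the 3 held the CCAAT box, the E-box or the SOX motif, which were in 33.8%, 14.5% and 16.5% of all windows. The G and C content was 70.8% for Ina, 65.2% for Prph and 58.7% for Nes, against a median of 52.4%. The Ina stretch had 25 CpG, that of Nes 14 and that of Prph 7, where the median over all windows was 6. These are letters found in the windows, not shown to be sites of any factor.

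Nes, the nestin gene, which marks dividing neural progenitors (ENSMUSG00000004891, chromosome 3, 87971078 to 87980451), did not separate the groups. It stood at 429 and 574 CPM in the Control libraries, against 553 and 545 CPM in the Brg1cKO libraries. Both Brg1cKO values lay between the controls, and the means were 502 ± 103 and 549 ± 5.68 CPM (SD, n = 2 each). The log2 fold change was 0.13 ± 0.16 (SE), and its 95% interval ran from -0.25 to 0.51.

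Vim, the vimentin gene (ENSMUSG00000026728, chromosome 2, 13573927 to 13582826), was the most abundant member in every library. It stood at 1666 and 1422 CPM in the Control libraries, against 2018 and 1923 CPM in the Brg1cKO libraries. Both Brg1cKO libraries were above both controls, the lower of them by 1.15 times over the higher control. The log2 fold change was 0.35 ± 0.098 (SE), and its 95% interval ran from 0.12 to 0.58 (adjusted p = 0.334, edgeR). Of the macrophage markers, 12 of 12 had positive values, where 48.5% of all genes tested had negative ones. Of these markers 1 (Mrc1) passed over all genes tested by edgeR, and none was at 0 throughout. Their summed levels were 338 to 386 CPM in the Control libraries and 1514 to 1588 CPM in the Brg1cKO libraries. Markers of striated muscle, heart included, summed to 146 to 193 against 870 to 871 CPM. Mesenchyme markers summed to 3931 to 4362 against 3216 to 3282 CPM. The endothelial sums are those given above. The part of these cells in the levels of Vim and Nes was not tested.

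Counting the whole list, 6 of 7 members had groups that did not overlap, 5 of them lower and 1 higher in the Brg1cKO libraries. Over all tested genes this held for 44.1%, with 17.8% lower and 26.3% higher. The median log2 fold change of the 7 genes, all of which passed the filter, was -1.86, and that of all tested genes was 0.03. The 5 neuronal genes sat low in the distribution of all genes, with 0.338% of genes below Nefh, 2.29% below Prph, 4.64% below Ina, 6.61% below Nefl and 7.88% below Nefm. Nes and Vim sat near its middle, with 55.2% and 65.7% of genes below them.

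**Figure D3:**
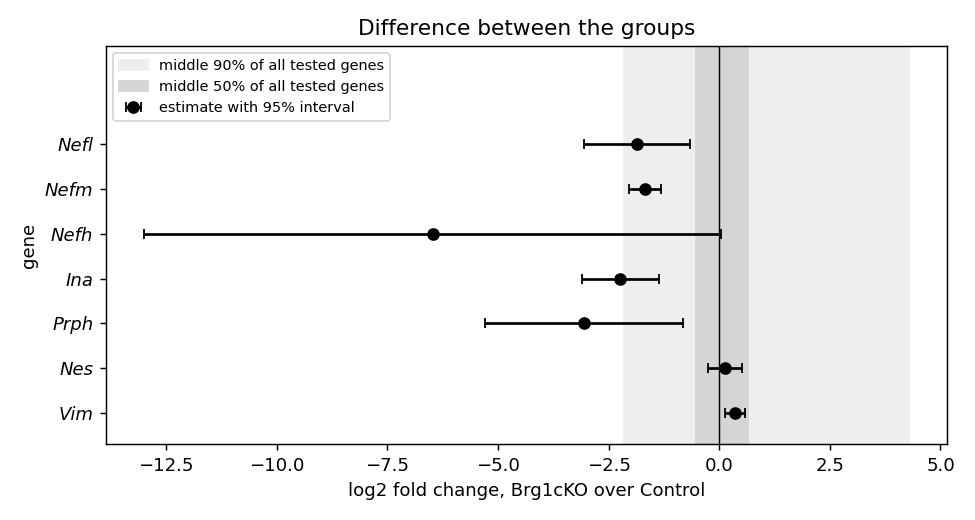
Log2 fold change of each filament gene, Brg1cKO over Control, with its 95% interval, over bands that hold the middle 50% and 90% of all 16557 tested genes. The 5 neuronal genes lie left of the inner band, at -1.67 to -6.47, though Nefm and Nefl lie inside the outer band. Nes and Vim lie inside the inner band at 0.13 and 0.35, and the interval of Nefh is the widest.

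Levels can be compared between genes only per length, here as CPM per kb of annotated exon. The length pools the exons of all annotated transcripts of a gene, 5782 bases for Nefm. Of these, 2381 belong to the last exon of the long Nefm transcript alone. If mostly the short transcript was present, Nefm would stand higher per kb than given here, which was not tested. In the controls Vim came first at 326 ± 36.5, then Nefm at 113 ± 15.3, Nes at 78.2 ± 16.0 and Ina at 29.9 ± 5.86 CPM per kb (SD, n = 2). These 4 did not overlap between neighbours in the order. Nefl at 12.9 ± 0.879 and Prph at 12.6 ± 9.70 CPM per kb could not be ordered, because the controls of Prph spanned 5.79 to 19.5, and Nefh was last. In the Brg1cKO libraries Nes and Nefm changed places: Vim stood at 415 ± 14.1, Nes at 85.6 ± 0.886, Nefm at 35.4 ± 1.37, Ina at 6.35 ± 0.878, Nefl at 3.56 ± 0.278 and Prph at 1.52 ± 0.164 CPM per kb. If the stretches shared with opposite-strand genes gave no reads, the remaining exon would put Nefl at 19.3 ± 1.31 and Nefm at 140 ± 18.9 CPM per kb in the controls, and at 5.30 ± 0.413 and 43.9 ± 1.70 in the Brg1cKO libraries.

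The make-up of the filament RNA differed between the groups. Shares per length rest on the pooled exon lengths above. Of the per-length sum over the 7 genes, the neuronal 5 took 28.1% and 31.3% in the Control libraries and 8.39% and 8.73% in the Brg1cKO libraries. Vimentin transcripts took 60.4% and 52.9% in the Control libraries and 76.2% and 75.4% in the others. Nestin transcripts took 11.5% and 15.8% against 15.4% and 15.8%. Set against each other by reads, Nes had 0.724 and 0.801 reads per read of Nefm in the Control libraries and 2.78 and 2.59 in the Brg1cKO libraries. Within the neuronal reads Nefm made up 77.0% and 81.0% in the Control libraries and 83.7% and 86.5% in the Brg1cKO libraries. The controls lay farther apart in this share than the nearest libraries of the 2 groups, and no difference between the genes was tested.

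**Figure D4:**
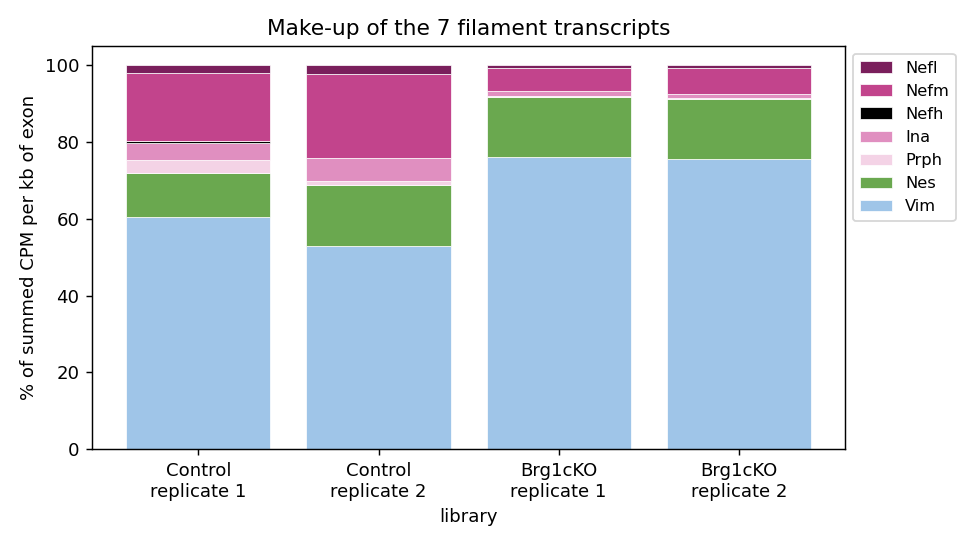
Share of each filament gene in the summed CPM per kb of exon (pooled over annotated transcripts) over the 7 genes, as a stacked bar for each library. The neuronal genes together fill 28.1% and 31.3% of the control bars and 8.39% and 8.73% of the Brg1cKO bars, and Vim fills most of each bar.

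Genes of similar profile were looked for among 11080 others whose average log2 CPM was 3 or more, by the distance between log2 CPM profiles over the 4 libraries, each centred on its own mean. Nearest to Nefl were Kif1a, a motor that carries synaptic vesicle precursors (distance 0.087), Dclk1, a microtubule-associated kinase (0.121), and Elavl3, a neuronal RNA-binding protein (0.161). Kif1a stood at 178 and 212 CPM in the Control libraries, against 59.2 and 52.7 CPM in the Brg1cKO libraries. Nearest to Nefm were Grik2, a kainate receptor subunit (0.089), Vegfa (0.182) and Nudt14 (0.191). Nearest to Ina were Svip (0.115), the epithelial adhesion gene Epcam (0.142) and Myt1, a zinc finger factor of neural cells (0.160). The like genes were in part neuronal and in part not. Nearest to Nes were Aco1 (0.040), Rhno1 (0.048) and Srpk1 (0.056), and nearest to Vim were Unc5b (0.031), Lta4h (0.035) and Atp2a2 (0.048). Among the members, Nefl and Nefm were the closest pair (0.245), followed by Nefl and Ina (0.434) and by Nes and Vim (0.506), while Nefm lay 1.82 from Nes. With 4 libraries in 2 groups these distances are a description, with no test.

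**Figure D5:**
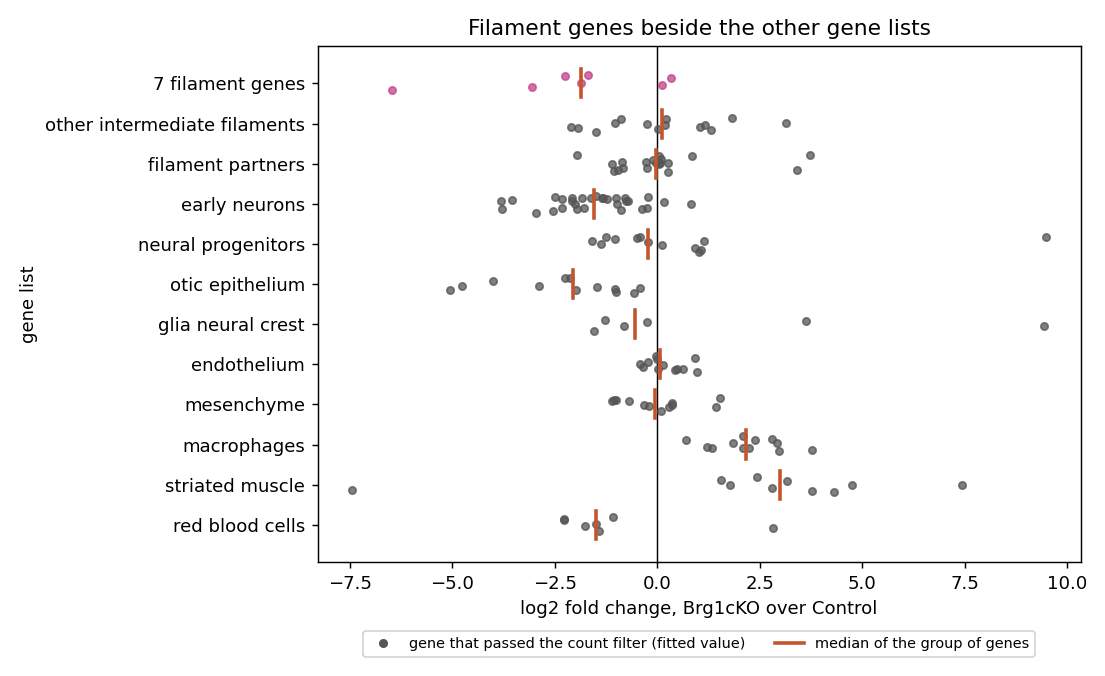
Log2 fold change of each tested gene, Brg1cKO over Control, by gene list, with the median of each list as a bar. The 7 filament genes split into 5 on the left and 2 near 0, early neuron genes lie mostly on the left, and other filament genes spread on both sides. Genes with 0 reads in a group, such as Sox1 and Cdh19, are drawn at fitted values that depend on the prior count.

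Other young neuron genes were low beside the filaments. Of 30 genes of otic neuroblasts and early neurons, none of them a member, 28 had negative values, with a median log2 fold change of -1.55. Of all genes tested, 48.5% had negative values, and the list was chosen with earlier results of these data known. By edgeR 0 of 30 passed over all genes tested, with 18 lower and 0 higher at an unadjusted p under 0.05, which 4.8% and 7.66% of all genes reached in those directions. DESeq2 called 19 lower and 0 higher, where it called 1043 lower and 1379 higher of all 16557 genes (14.6% in both directions together). Stmn2, a regulator of axonal microtubules, stood at 112 and 91.9 CPM in the Control libraries, against 30.3 and 27.0 CPM in the Brg1cKO libraries (adjusted p = 0.139, edgeR). Map1b, a microtubule-associated protein of growing axons, stood at 791 and 1059 against 525 and 543 CPM (adjusted p = 0.167, edgeR). Summed, the list stood at 2665 to 2754 CPM in the Control libraries, against 1352 to 1367 CPM in the Brg1cKO libraries. The summed neuronal filaments came to 27.9% and 33.2% of that sum in the Control libraries and to 17.6% and 17.8% in the Brg1cKO libraries. This share depends on the genes listed, since Map1b and Dpysl3 weigh heavily in the sum. Dpysl3, with a positive value, stood at 194 and 168 CPM in the Control libraries, against 188 and 222 CPM in the Brg1cKO libraries. Whether the filaments were lower than neuron number alone would give was not tested.

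The rest of the filament family did not share one direction. Of 21 other filament genes, keratins, lamins, desmin and its relatives, 14 could be tested, 6 with negative and 8 with positive values and a median of 0.11. By edgeR 0 passed, with 2 lower and 1 higher at an unadjusted p under 0.05, and DESeq2 called 2 lower and 1 higher. Krt18, a keratin of simple epithelia, stood at 139 and 158 CPM in the Control libraries, against 70.9 and 74.6 CPM in the Brg1cKO libraries (adjusted p = 0.264, edgeR). Des, the muscle filament desmin, stood at 3.05 and 7.43 against 38.2 and 54.8 CPM (adjusted p = 0.228, edgeR). Lmnb1, a nuclear lamin, stood at 624 and 759 against 761 and 832 CPM (adjusted p = 0.648, edgeR). Gfap, the filament of astrocytes and some glia, was at or near 0, with at most 0.690 CPM in any library.

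Proteins that link, carry or modify filaments also had values in both directions. Of 19 such genes, 10 were negative and 9 positive, with a median of -0.02. By edgeR 0 passed, with 3 lower and 1 higher at an unadjusted p under 0.05, and DESeq2 called 3 lower and 1 higher. The 3 lowest p-values belonged to parts of kinesin-1, the motor that carries neurofilaments along axons. Kif5a, its neuronal heavy chain, stood at 178 and 89.9 CPM in the Control libraries, against 40.7 and 28.3 CPM in the Brg1cKO libraries (adjusted p = 0.228, edgeR). Klc1, a light chain, stood at 272 and 282 against 140 and 164 CPM (adjusted p = 0.214, edgeR). Kif5c, another neuronal heavy chain, stood at 156 and 216 against 105 and 89.0 CPM (adjusted p = 0.312, edgeR). Kif5b, the heavy chain found in most tissues, stood at 313 and 304 against 303 and 346 CPM. The linker Plec stood at 370 and 307 against 334 and 335 CPM, both controls enclosing the other group.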

How the data were processed

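Gene counts came from 4 strand-specific, random-primed SMART-seq libraries read from a single end over 75 bases, per the labels' protocols. The authors deposited raw counts of reads per Ensembl gene. The submitters' processing notes name HISAT2, HTSeq, DESeq2 and mm10 without roles or versions. Lines without a gene name entered neither library sizes nor tests (21.0% and 21.6% of records in the Control libraries and 14.5% and 15.0% in the Brg1cKO libraries lay outside genes). Symbols, exons and lengths were taken from GENCODE M21, which matched 52403 of 52636 identifiers, and promoter sequences from RefSeq (GRCm38.p6).

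Counts were fitted with edgeR 4.0.16 in R 4.3.3: filterByExpr with a minimum count of 10 (16557 genes kept), TMM scaling, and a robust quasi-likelihood F-test of the group over all genes. The threshold for a call was an adjusted p (Benjamini-Hochberg) under 0.05. Profile distances used log2 of CPM plus 0.5. DESeq2 1.42.0 and 10 other settings served as alternatives. Named genes were the 7 members, Smarca4, up to 3 genes of each list by smallest p and up to 3 by highest CPM, and the nearest profiles. Gfap, Hes5, Sox1, Cdh19, Myod1 and Nt5c2 were named after their values or positions were seen. The members and all 11 other lists were chosen with earlier results of these data known. The reads carry no molecular identifiers, so limits based on counts cover counting error only.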

Additional observations from a re-analysis of the deposited data

How the results depend on the processing

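The number of genes called was 5 of 16557 and moved widely: 417 with every gene of at least 1 count, 10 with a minimum count of 50, 2422 with DESeq2, 70 with the newer quasi-likelihood form and 6 with RLE size factors. Leaving out 1 library at a time gave 33 to 3519 calls, with the 2 highest counts (3519 and 3355) without Control replicate 1 and without Control replicate 2. A lone library is then assumed to vary like those of the other group.

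Of the 7 filament genes, 1 was called in the chosen fit. With no filter beyond 1 count (1.66% of all genes called), and with the newer form (0.423%), 2 were called (Nefm and Ina), and with DESeq2 6 were called, all but Nes, where 14.6% of all genes were called. Without 1 library the count ran from 1 to 7, reaching 7 without Control replicate 2, where 16.9% of all genes were called, and 4 without Control replicate 1 (17.6%). Nefm was called under all 10 settings in which the whole table was refitted. With the replicate number as a block, 140 genes were called (0.846%), among them 2 filament genes, Nefm and Ina. The shared numbers do not pair the libraries by the labels, and the correlation of same-numbered deviations was 0.0052.

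Signs of the log2 fold changes were kept in every setting run for 6 of the 7 genes, the exception being Nes, at -0.06 without Control replicate 1 and 0.34 without Control replicate 2. The ranges were -1.93 to -1.78 for Nefl, -1.80 to -1.55 for Nefm, -2.42 to -2.04 for Ina, -3.69 to -1.92 for Prph, -10.06 to -3.11 for Nefh and 0.22 to 0.48 for Vim. The feature that sums Nefl and Nefm, at -1.69, is left out of the range for Nefl. The causes were not tested. The few reads of Nefh limit any statement on it.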

Other observations

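Although its make-up differed, the share of all gene reads that the 7 filament genes took together was nearly level, at 0.287% and 0.284% in the Control libraries and 0.280% and 0.272% in the Brg1cKO libraries. Most of these reads came from Vim and Nes. The neuronal genes held 11833 and 16680 of them in the Control libraries and 6970 and 6309 in the Brg1cKO libraries, which had more reads in all.

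Progenitor genes other than nestin and vimentin did not follow one direction. Of 14 such genes, 13 were tested, 7 with negative and 6 with positive values, and by edgeR 0 passed, with 3 lower and 1 higher at an unadjusted p under 0.05 (DESeq2 called 3 lower and 1 higher). Sox9, a factor of otic and neural progenitors, stood at 213 and 218 CPM in the Control libraries, against 119 and 93.8 CPM in the Brg1cKO libraries (adjusted p = 0.215, edgeR). Notch1 stood at 282 and 298 against 355 and 272 CPM, a spread that held both controls. Hes5 had 0 reads in every library, which allows up to 0.102 to 0.195 CPM. Among glial and neural crest genes, Sox10, which is also an otic epithelium gene, stood at 116 and 166 against 57.0 and 59.1 CPM (adjusted p = 0.233, edgeR). Tfap2b, of the same list, went the other way, at 2.53 and 1.33 against 22.9 and 25.1 CPM (adjusted p = 0.296, edgeR). Of the 6 tested, Sox10 and Erbb3 were lower and Tfap2b and Cdh19 higher at an unadjusted p under 0.05 (edgeR). The 8 markers of glia and neural crest summed to 287 and 414 CPM in the Control libraries and 159 and 174 CPM in the Brg1cKO libraries. Sox10 and Erbb3 weigh heavily in that sum, so it does not give the direction of each marker. The 8 markers of red blood cells summed to 619 and 648 against 222 and 207 CPM.

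The lists of other cell types are given by their counts over the genes tested by edgeR. Over all genes tested, 48.5% had negative values. All 12 otic epithelium markers had negative values (median log2 fold change -2.06), and 1 of them passed, Oc90, an otoconial protein gene, at 782 and 732 CPM in the Control libraries and 44.6 and 49.1 CPM in the Brg1cKO libraries. The 12 macrophage markers had a median of 2.17, with 9 higher at an unadjusted p under 0.05, and DESeq2 called 9 higher. Of all genes, 4.8% were lower and 7.66% higher at that p. DESeq2 called 1043 lower and 1379 higher of all 16557 genes (14.6% in both directions together). None of the other lists had a gene that passed, and their counts at an unadjusted p under 0.05 follow. Endothelium had 4 negative and 8 positive values (median 0.08), with 1 lower and 3 higher, and DESeq2 called 1 and 3. Mesenchyme had 6 and 6 (median -0.05), with 3 lower and 1 higher, and DESeq2 called 3 and 1. Striated muscle, heart included, had 1 (Myod1) and 9 of 10 tested (median 2.995), with 1 lower and 9 higher, and DESeq2 called 1 and 7. Red blood cells had 6 and 1 of 7 tested (median -1.49), with 4 lower and 0 higher, and DESeq2 called 5 and 0. Glia and neural crest had 4 and 2 of 6 tested, with 2 lower and 2 higher, and DESeq2 called 2 and 2.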
